A study of Mus musculus with 12 samples.

Results

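The genes that make and spread the heartbeat include the pacemaker channel genes Hcn4 and Hcn2, the sodium channel gene Scn10a, and the connexin genes Gja1, Gja5 and Gjc1, whose H3K27ac is described here. They are 6 of 21631 protein-coding genes in the RefSeq table, of which 14317 had enough called H3K27ac to be tested. Each was taken by name, and every called region from 10 kb below to 10 kb above its gene body was assigned to it. H3K27ac, acetylation of histone H3 at lysine 27, marks active promoters and enhancers. It was measured by ChIP-seq in mouse hearts of postnatal day 0. The edKO hearts, 3 in number (replicates 1, 3 and 6), came from newborns with a cardiomyocyte-specific RXRab-/- genotype, a loss of the retinoid X receptors alpha and beta. The WT hearts, 3 in number (replicates 1, 3 and 4), came from wild-type newborns. Each list of regions came from 1 whole heart fixed with DSG and then FA. The labels do not name the Cre line. A whole heart also holds endothelial cells, fibroblasts and smooth muscle, in which the labels describe no deletion. The nodes and conduction bundles that use several of these genes are a small share of its tissue.

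HCN channels open on hyperpolarisation and carry the pacemaker current that brings sinoatrial cells back to threshold. Voltage-gated sodium channels carry the upstroke of the action potential in working and conducting myocytes. Connexins form gap junctions, the pores through which current passes from one myocyte to the next, and different connexins mark the ventricle, the atria, the fast bundles and the nodes. RXRs are nuclear receptors that pair with other receptors and bind repeats of a hexamer half-site on DNA.

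The comparison asked whether called H3K27ac at these genes differed between edKO and WT hearts. The measure was the called length, the number of bases in a window covered by a heart's called regions. Called length does not give the height of the signal. No member passed the test over all loci (limma, adjusted p under 0.05), while the unadjusted p was under 0.05 at 3 of the 6. Those 3 were Hcn2, Gja5 and Gjc1, and at each of them every edKO heart had less called length than every WT heart. Hcn4, Gja1 and Scn10a had overlapping groups. Over all 14317 loci, 0.105% passed the test (15 loci, and 0 to 9 with 1 heart left out), and 6.61% had an unadjusted p under 0.05. The called length of all edKO hearts lay below that of all WT hearts at 6.5% of loci, and at 5.78% after each heart was centred on its own mean. The 3 members kept this order after centring. The median log2 difference, edKO minus WT, was -0.35 over the 6 members and 0.03 over all loci. The members were chosen with earlier results of these data known. They are therefore not an unselected set, and their counts and median cannot be weighed against the shares over all loci.

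The lists differed in size between hearts. The edKO hearts had 47971, 48274 and 67706 distinct regions in replicates 1, 3 and 6, and the WT hearts had 57976, 62882 and 66325 in replicates 1, 3 and 4. The total called length was 66.6, 47.9 and 62.6 Mb in the edKO hearts and 67.4, 68.3 and 59.1 Mb in the WT hearts. The edKO replicate 3 had the shortest total, and it also had the least called length of the 6 hearts at Scn10a, Hcn2, Hcn4, Gja5 and Gjc1. Values without this heart are therefore given beside those genes. Read depth per heart is unknown, since the lists carry no counts. In a whole heart, fewer cells with the mark and less of the mark per cell cannot be told apart.

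**Figure D1:**
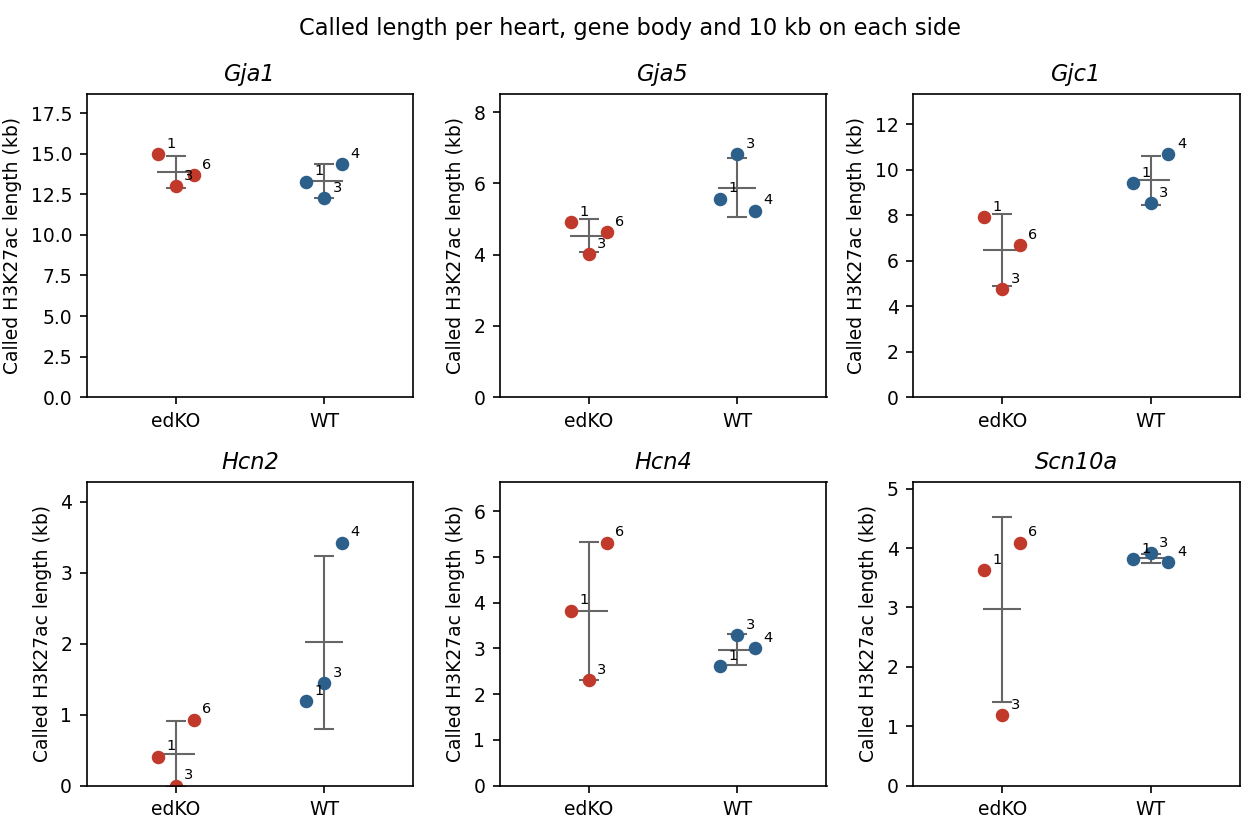
Called H3K27ac length in kb per heart at each gene, edKO left and WT right, with the replicate number beside each point and the mean ± SD as bars (n = 3 each); each panel has its own axis from 0. The edKO points lie below all WT points at Hcn2, Gja5 and Gjc1.

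The promoters of 4 members are shown because the called regions treat them differently: those of Hcn4, Gja1 and Gja5 were called in all 6 hearts, and that of Hcn2 in none. Each line gives the 250 bases before the start site on the gene's strand, 5′ to 3′, from RefSeq (GRCm38.p6). Capitals mark matches to the motifs searched. Sequences of 5 of the 6 members were matched, and Gjc1 was not among them.
Hcn4: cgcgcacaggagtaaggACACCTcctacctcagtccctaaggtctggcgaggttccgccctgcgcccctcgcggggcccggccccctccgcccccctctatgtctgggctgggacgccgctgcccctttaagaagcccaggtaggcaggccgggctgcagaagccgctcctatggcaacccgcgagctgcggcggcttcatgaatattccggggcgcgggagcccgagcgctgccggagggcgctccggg
Gja1: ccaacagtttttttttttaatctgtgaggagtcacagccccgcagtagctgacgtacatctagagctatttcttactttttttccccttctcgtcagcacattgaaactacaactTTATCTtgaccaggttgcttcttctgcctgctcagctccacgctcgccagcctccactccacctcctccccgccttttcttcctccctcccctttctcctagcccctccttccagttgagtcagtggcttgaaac
Gja5: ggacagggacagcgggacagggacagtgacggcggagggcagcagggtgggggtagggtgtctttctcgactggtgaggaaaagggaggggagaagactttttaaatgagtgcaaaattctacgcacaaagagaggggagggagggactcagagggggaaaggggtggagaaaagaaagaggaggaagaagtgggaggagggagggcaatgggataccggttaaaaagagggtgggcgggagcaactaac
Hcn2: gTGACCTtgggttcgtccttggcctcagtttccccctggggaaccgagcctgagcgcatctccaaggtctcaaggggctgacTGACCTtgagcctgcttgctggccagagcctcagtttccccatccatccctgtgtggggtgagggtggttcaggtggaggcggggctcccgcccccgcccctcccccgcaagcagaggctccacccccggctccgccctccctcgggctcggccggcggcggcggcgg

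The capitals in Hcn4 are a T-box motif, AGGTGT, read on the opposite strand at bases -233 to -228 from the start. Those in Gja1 are a GATA motif, AGATAA, on the opposite strand at -135 to -130. Hcn2 held the RXR half-site AGGTCA on the opposite strand at 2 places, -249 to -244 and -168 to -163. Gja5 and Scn10a held none of the motifs searched, which also included the NKX2-5 motif TNAAGTG, the MEF2 motif, and direct repeats of AGGTCA with spacers of 1, 2, 4 or 5 bases. Both strands were read and overlapping matches were allowed. Over 32851 RefSeq promoter windows of the same length, 16.3% held AGGTCA, 13.7% AGGTGT, 11.5% TNAAGTG, 11.2% AGATAA and 3.69% the MEF2 motif. A match is a string of letters, and binding there was not measured. The windows of Hcn4 and Hcn2 had much the same base composition, 71.7% and 72.3% G or C, and Gja1 had 47.7%.

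These windows run from 250 bases before to 50 after the start, 300 bases in all. The windows of Hcn4 and Gja1 were covered over all 300 bases in every heart. That of Gja5 was covered over 300 bases in 5 hearts and over 185 bases in WT replicate 4. The windows of Hcn2 and Scn10a were covered by 0 bases in every heart. For comparison, 39.7% to 43.1% of all 32619 promoter windows examined were touched by a called region, depending on the heart.

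Hcn4 encodes the main pacemaker channel of the sinoatrial node and lies on the plus strand at chr9:58822949-58863175 (mm10, as for all coordinates). Its called length was 3824, 2305 and 5307 bp in edKO replicates 1, 3 and 6, and 2617, 3293 and 3010 bp in WT replicates 1, 3 and 4. The edKO hearts spread on both sides of the WT hearts. The means were 3812 ± 1501 bp in edKO and 2973 ± 339 bp in WT (SD, n = 3 each). The log2 difference in called length was 0.36 with an SE of 0.21 (limma, adjusted p = 0.840), and it was 0.54 without edKO replicate 3 and 0.13 without edKO replicate 6.

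The region at the Hcn4 start, chr9:58821903-58824292, covered 2143, 1755 and 2195 bp in the edKO hearts and 1657, 1983 and 1962 bp in the WT hearts. It ran 1.0 kb before to 1.3 kb past the start, and its groups overlapped (log2 difference 0.18, SE 0.13, limma adjusted p = 0.930). The neighbouring gene Rec114 begins 242 bp away, so this region belongs to both starts. An intragenic region 24.0 to 25.6 kb past the start covered 890, 550 and 1096 bp in the edKO hearts and 960, 1310 and 815 bp in the WT hearts. It too was called in all 6 hearts, with no separation of the genotypes. A region 5.0 to 4.4 kb before the start, inside Rec114, was called over 424 bp in edKO replicate 1 and 645 bp in edKO replicate 6, and in neither edKO replicate 3 nor any WT heart. A further 5 regions were called in edKO replicate 6 alone. When each region was counted for its nearest gene alone, the Hcn4 log2 difference was 0.22.

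Hcn2, the second pacemaker channel of the heart and also a neuronal one, lies on the plus strand at chr10:79716634-79736108. Its called length was 408, 0 and 929 bp in the edKO hearts, and 1195, 1442 and 3421 bp in the WT hearts. All edKO hearts were below all WT hearts, and edKO replicate 3 had no called base in the window. The means were 446 ± 466 bp in edKO and 2019 ± 1220 bp in WT (SD, n = 3 each). Hcn2 had the lowest log2 difference of the 6 members, -1.89 with an SE of 0.60 (unadjusted p = 0.0150, limma adjusted p = 0.559). Its size depends on the window and on the bases added before taking logs: it was -0.33 when the flanks were widened to 50 kb, -2.63 with 50 bp added, and -0.97 with 1000 bp added. Without edKO replicate 3 it was -1.32.

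The Hcn2 window takes in parts of 2 neighbours, Bsg, 4654 bp below the gene, and Polrmt, 16 bp above it. Over the Hcn2 gene body alone, 0, 0 and 235 bp were called in the edKO hearts, and 483, 527 and 1911 bp in the WT hearts. The genotypes again did not overlap, and the log2 difference over the body was -1.90. The most widely called body region, 7.3 to 7.8 kb past the start, covered 0, 0 and 235 bp in the edKO hearts and 483, 275 and 275 bp in the WT hearts (log2 difference -0.98, limma adjusted p = 0.886). Body regions at 0.1 to 0.5 kb and at 6.6 to 7.1 kb were called in WT replicate 4 alone. The region toward Bsg, chr10:79703594-79707165, reaches only partly into the window and covered, over its whole length, 2637, 1529 and 2809 bp in the edKO hearts and 2979, 3431 and 3491 bp in the WT hearts. Its log2 difference was -0.44 (SE 0.17, limma adjusted p = 0.640), and no edKO heart reached the lowest WT heart. The region toward Polrmt covered, over its whole length, 864, 488 and 729 bp in the edKO hearts and 1155, 1118 and 721 bp in the WT hearts, with overlap. It too reaches only partly into the window. Inside the window it covered 167, 0 and 141 bp in the edKO hearts and 79, 85 and 125 bp in the WT hearts. In the Bsg body inside the window, 241, 0 and 553 bp were called in the edKO hearts. The WT hearts had 633, 830 and 1385 bp there. In each heart with a call in the window except WT replicate 4, this was more than over the Hcn2 body.

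Scn10a encodes the sodium channel Nav1.8, best known from sensory neurons, and lies on the minus strand at chr9:119608456-119719322. The called length at Scn10a was 3625, 1185 and 4090 bp in the edKO hearts, and 3810, 3909 and 3759 bp in the WT hearts. The WT hearts lay close together, and edKO replicate 3 stood below the other 5. The means were 2967 ± 1560 bp in edKO and 3826 ± 76.3 bp in WT (SD, n = 3 each). The log2 difference was -0.42 with an SE of 0.31 (limma, adjusted p = 0.857), and it was -0.02 without edKO replicate 3.

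Nearly all of this length was 1 intragenic region, chr9:119631384-119635464, which lies 83.6 to 87.6 kb downstream of the Scn10a start. It covered 3625, 1185 and 3749 bp in the edKO hearts and 3810, 3909 and 3759 bp in the WT hearts (log2 difference -0.48, SE 0.29, limma adjusted p = 0.899). The edKO hearts were all below the WT hearts, with edKO replicates 1 and 6 close to them and edKO replicate 3 far below; without the last, the log2 difference of the region was -0.08. The only other region of the locus was 341 bp long and was called in edKO replicate 6 alone. Scn10a was thus called inside the gene and not at its promoter in all 6 hearts.

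**Figure D2:**
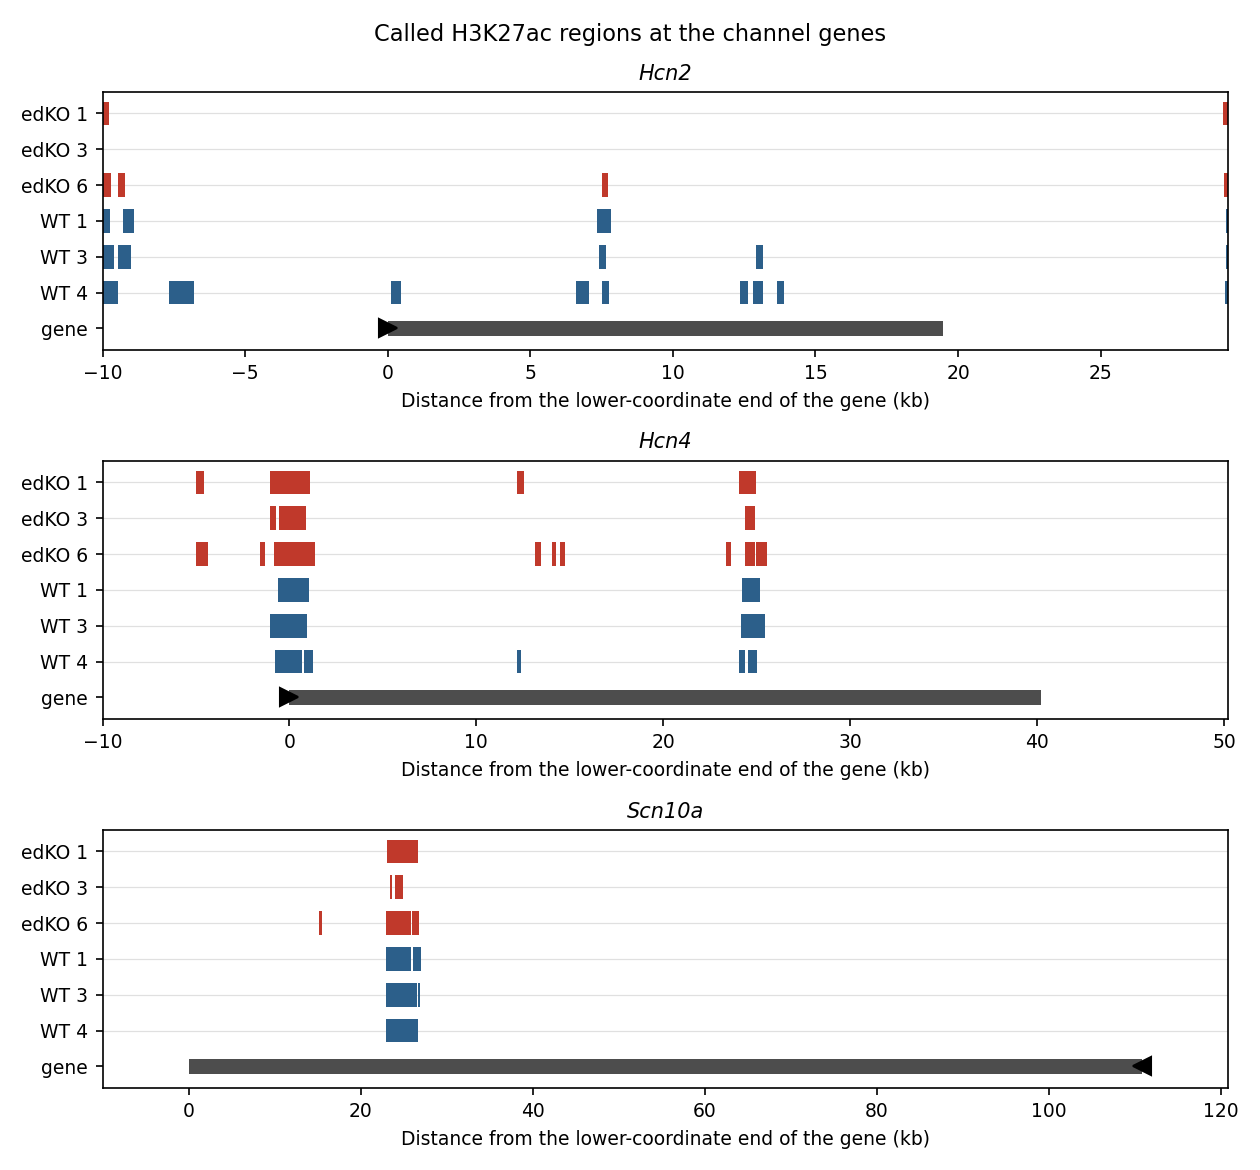
Called regions of each heart (rows, edKO in red above WT in blue) at Hcn2, Hcn4 and Scn10a, with distance in kb from the lower-coordinate end of the gene and an arrowhead at the start site. Scn10a has calls within 1 intragenic region in all 6 hearts, in 1 or 2 pieces, and none at its start, while the Hcn2 body has 1 call in the edKO hearts, in replicate 6.

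Gja1 encodes connexin 43, the main connexin of working ventricular muscle and also of many other cells, and lies on the plus strand at chr10:56377300-56390419. It had the most called length of the 6 genes in every heart. The values were 14971, 13011 and 13671 bp in the edKO hearts, and 13282, 12259 and 14354 bp in the WT hearts. The groups overlapped, with means of 13884 ± 997 bp in edKO and 13298 ± 1048 bp in WT (SD, n = 3 each). The log2 difference was 0.15 with an SE of 0.13 (limma, adjusted p = 0.873).

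Gja1 was called in 3 regions, all present in all 6 hearts. The promoter region, from 1.7 kb before to 5.2 kb past the start, covered 6893, 6691 and 6786 bp in the edKO hearts and 6642, 6618 and 6791 bp in the WT hearts. Its log2 difference was 0.09 (SE 0.11, limma adjusted p = 0.932), with overlapping groups. The next region, 5.3 to 12.0 kb past the start, covered 6419, 5539 and 5876 bp in the edKO hearts and 5354, 4677 and 6229 bp in the WT hearts (log2 difference 0.20, SE 0.15, limma adjusted p = 0.930). The upstream region, 4.5 to 2.7 kb before the start, covered 1659, 781 and 1009 bp in the edKO hearts and 1286, 964 and 1334 bp in the WT hearts, also with overlap. The nearest protein-coding neighbour, Tbc1d32, is 148331 bp away, so no neighbour shares the window.

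Gja5 encodes connexin 40, the connexin of atrial muscle, the His-Purkinje system and arterial endothelium, and lies on the plus strand at chr3:97032402-97053634. Its called length was 4923, 4023 and 4641 bp in the edKO hearts, and 5574, 6821 and 5240 bp in the WT hearts. All edKO hearts were below all WT hearts. The means were 4529 ± 460 bp in edKO and 5878 ± 833 bp in WT (SD, n = 3 each). The log2 difference was -0.27 with an SE of 0.11 (unadjusted p = 0.0330, limma adjusted p = 0.697). Without edKO replicate 3 it was -0.31, but it was -0.04 when every list was cut to the same number of entries.

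The Gja5 promoter region, 0.7 kb before to 2.5 kb past the start, covered 2462, 2527 and 2482 bp in the edKO hearts and 2633, 3159 and 2133 bp in the WT hearts. The estimate of its log2 difference was 0.00 with an SE of 0.14, and the WT hearts lay on both sides of the edKO hearts. Further into the gene, chr3:97037990-97038636, 5.6 to 6.2 kb past the start, was called over 0, 0 and 0 bp in the edKO hearts, and over 377, 365 and 329 bp in the WT hearts. It was the only one of 43 distinct regions at the 6 genes that was called in all hearts of 1 genotype and in none of the other. It was a weak call: by deposited fold enrichment its strongest peak stood at percentiles 35.0, 15.8 and 9.14 in the lists of WT replicates 1, 3 and 4. Over all 79241 regions, 1.08% had a call in every WT heart and in none of the edKO hearts. The fitted log2 difference was -1.41 with an SE of 0.49 (unadjusted p = 0.0198, limma adjusted p = 0.583), a value that depends on the 200 bp added and is no bound. The region entered this test through its WT calls alone, so the p is no separate evidence of a genotype difference. In the equal-length lists it was called in 1 WT heart. The stretch from 2.5 to 3.8 kb was called over 0, 0 and 264 bp in the edKO hearts and over 0, 1218 and 411 bp in the WT hearts. Past the gene's end, 29.2 to 32.2 kb from the start, the region common to all 6 hearts covered 2635, 1849 and 2015 bp in the edKO hearts and 2802, 2404 and 2527 bp in the WT hearts (log2 difference -0.17, limma adjusted p = 0.911). These lengths are for the whole region, which reaches past the edge of the Gja5 window.

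Gjc1 encodes connexin 45, the connexin of the nodes and of the early embryonic heart, and lies at chr11:102799477-102819686. Its called length was 7921, 4766 and 6698 bp in the edKO hearts, and 9407, 8525 and 10691 bp in the WT hearts. No edKO heart reached the lowest WT heart, and edKO replicate 3 had the least. The means were 6462 ± 1591 bp in edKO and 9541 ± 1089 bp in WT (SD, n = 3 each). The log2 difference was -0.49 with an SE of 0.15 (unadjusted p = 0.0126, limma adjusted p = 0.531), and it was -0.41 without edKO replicate 3.

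Both Gjc1 regions in which the genotypes did not overlap lay below the gene. The region 6.1 to 4.6 kb below the lower-coordinate end, chr11:102793385-102794900, covered 459, 486 and 736 bp in the edKO hearts and 1331, 1361 and 1513 bp in the WT hearts. The highest edKO heart was well under the lowest WT heart. Its log2 difference of -1.02 (SE 0.24, unadjusted p = 0.0029) had the smallest adjusted p of the regions at the 6 genes, 0.347 by limma. The next region out, chr11:102791346-102792623, covered 795, 652 and 803 bp in the edKO hearts and 1213, 1278 and 1095 bp in the WT hearts (log2 difference -0.49, SE 0.18, limma adjusted p = 0.614). Here too the genotypes did not overlap. Both regions lie over 10 kb from the nearest protein-coding gene on that side, Adam11.

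The largest Gjc1 region, 16.2 to 20.8 kb from the lower end and so across the higher-coordinate end, covered 4413, 3322 and 3889 bp in the edKO hearts and 4386, 4171 and 3897 bp in the WT hearts. Its log2 difference was -0.03 with an SE of 0.08 (limma, adjusted p = 0.949). A region 0.4 to 2.6 kb inside the lower end covered 1631, 306 and 1015 bp in the edKO hearts and 1352, 841 and 2245 bp in the WT hearts, with overlap. Over the gene body alone the groups overlapped, and the Gjc1 log2 difference was -0.27. Of the 13 Gjc1 regions, 8 were called in a single heart.

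**Figure D3:**
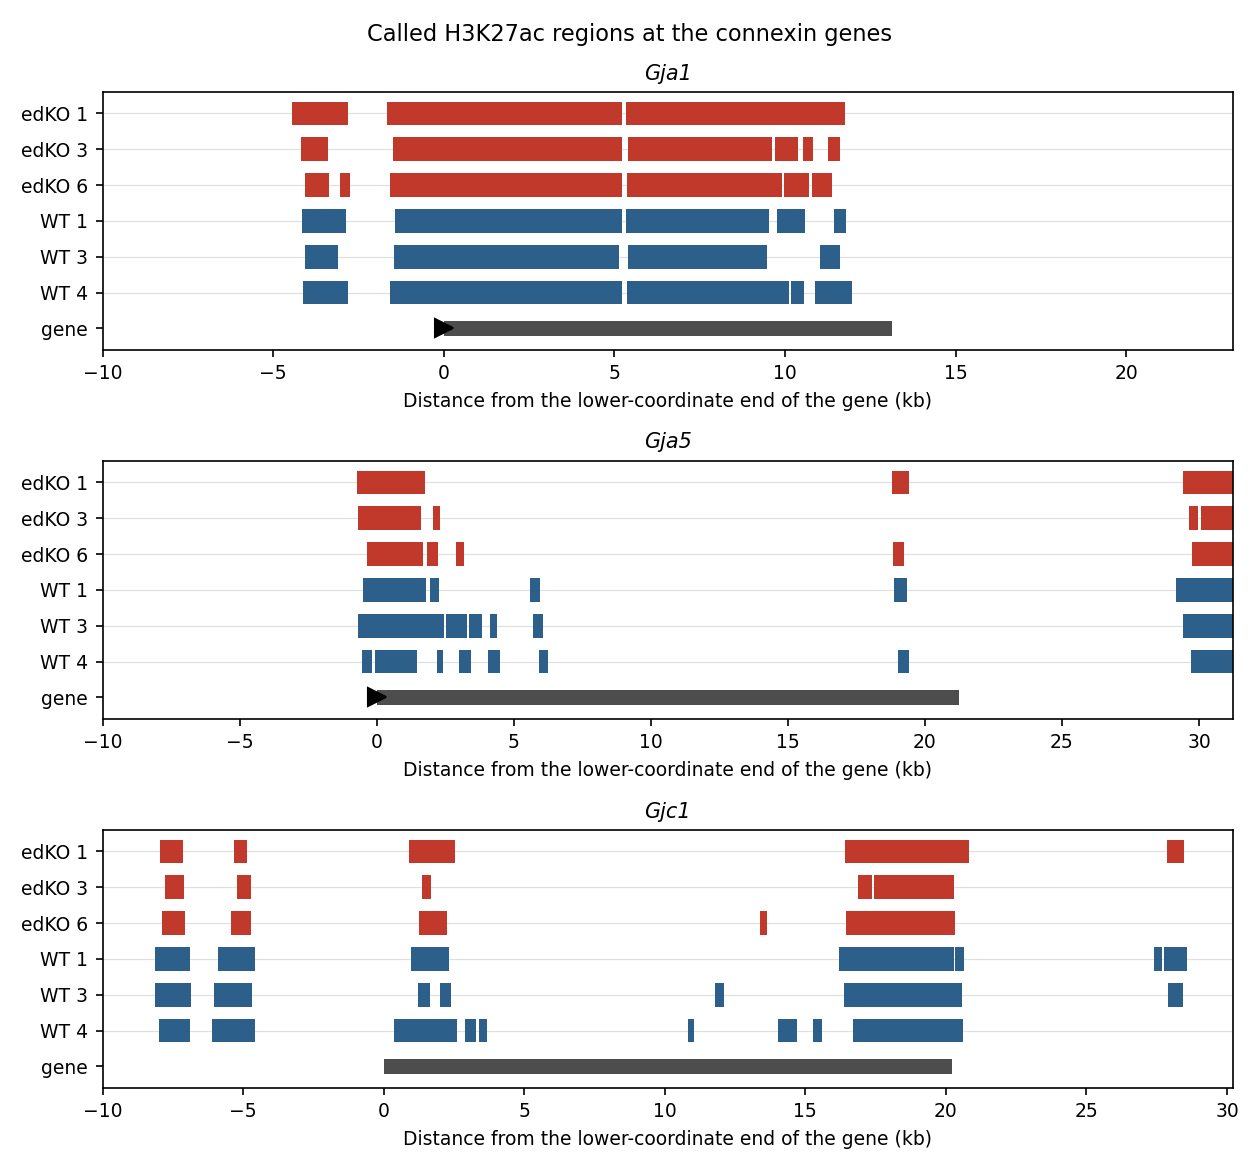
Called regions of each heart (rows, edKO in red above WT in blue) at Gja1, Gja5 and Gjc1, with distance in kb from the lower-coordinate end of the gene and an arrowhead at the start site of Gja1 and Gja5. The WT rows alone have a call 5.6 to 6.2 kb into Gja5, and the blocks 6.1 to 4.6 kb below Gjc1 are shorter in the edKO rows.

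Over the 6 genes together, 20 of the 43 regions were called in at least 3 hearts and were tested. None passed the test over all regions (limma, adjusted p under 0.05), and 4 had an unadjusted p under 0.05. Over all 44815 regions tested, 0.0625% passed (28 regions, and 1 to 32 with 1 heart left out) and 6.75% had an unadjusted p under 0.05. In 6 of the 20, at Gja5, Gjc1, Hcn2 and Scn10a, all edKO hearts were below all WT hearts, against 8.17% of all regions tested. The Gja5 region is among both these 6 and the 4. It met the filter of at least 3 hearts through its WT calls alone. In 0 of the 20 all edKO hearts were above all WT hearts, against 1.13% of all regions tested. The 14 regions called in all 6 hearts included at least 1 at each gene. Of the 19 called in a single heart, 10 were in WT replicate 4 and 7 in edKO replicate 6.

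Separate calls per window were also counted. Gjc1 had 5, 5 and 5 in the edKO hearts and 7, 7 and 9 in the WT hearts, and the exact two-sided permutation test over 20 assignments gave p = 0.1, the smallest it can give. With lists of equal length the Gjc1 difference in mean calls was -0.333 (exact permutation p = 1.0), against -2.67 as deposited. Hcn2 had 2, 0 and 4 in the edKO hearts and 4, 5 and 9 in the WT hearts (exact permutation p = 0.2). Gja5 had 3, 4 and 5 in the edKO hearts and 5, 6 and 8 in the WT hearts (exact permutation p = 0.2). Hcn4 had 4, 3 and 9 in the edKO hearts and 2, 2 and 5 in the WT hearts (exact permutation p = 0.5), and its difference in mean calls was 0.5 without edKO replicate 6, against 2.33 with it. Gja1 and Scn10a gave p = 1.0 by the same exact permutation test. With 3 hearts against 3, this permutation test cannot reach p under 0.05.

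Set per length of window, the genes differed widely in how much of their surroundings was called. Gja1 had 41.9 ± 3.01% of its window called in edKO hearts and 40.2 ± 3.16% in WT hearts (SD, n = 3 each, as below). Gjc1 followed with 16.1 ± 3.96% in edKO and 23.7 ± 2.71% in WT hearts, and Gja5 with 11.0 ± 1.12% in edKO and 14.3 ± 2.02% in WT hearts. Hcn4 had 6.33 ± 2.49% in edKO and 4.94 ± 0.564% in WT hearts, beside a median of 6.27% over all tested loci. Scn10a had 2.27 ± 1.19% in edKO and 2.92 ± 0.0583% in WT hearts, and Hcn2 had 1.13 ± 1.18% in edKO and 5.12 ± 3.09% in WT hearts. The genes are given in the order of their edKO means, and in WT hearts the mean of Hcn2 lay above those of Hcn4 and Scn10a. Among neighbours in the edKO order, the ranges over the edKO hearts overlapped for Gjc1 with Gja5 and for Scn10a with Hcn2. Among neighbours in the WT order, the ranges over the WT hearts overlapped for Hcn2 with Hcn4.

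**Figure D4:**
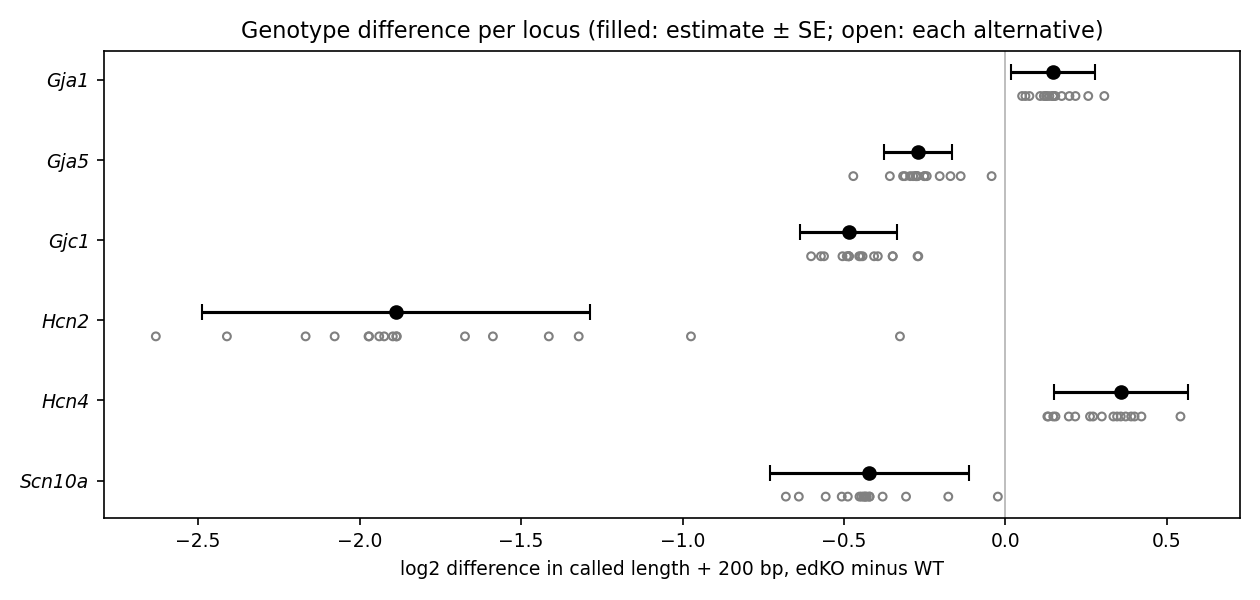
Log2 difference in called length (200 bp added), edKO minus WT, for each gene: filled points are the estimates with their SE, open points the values under each of 17 alternatives. No point of any gene crosses 0, and Hcn2 spans -2.63 (50 bp added) to -0.33 (gene body and 50 kb).

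The deposited fold enrichment ranks each gene's strongest peak within its own heart's list. The strongest Gja1 peak stood between percentile 99.1 and 99.8 in all 6 lists, so it was among the most enriched peaks of every heart. The strongest Gjc1 peak stood at 97.6, 98.3 and 93.4 in the edKO lists and at 95.1, 98.1 and 99.8 in the WT lists. Gja5 stood at 59.5, 60.0 and 72.1 in the edKO lists and at 69.3, 75.1 and 76.6 in the WT lists. Scn10a, whose strongest peak is the intragenic one, stood at 64.1, 63.6 and 79.0 in the edKO lists and at 73.4, 81.7 and 86.8 in the WT lists. The strongest Hcn4 peak ranked between 57.3 and 79.8 over the 6 lists. At Hcn2 the strongest peak reaching the window stood at 68.5 and 74.0 in edKO replicates 1 and 6, and at 81.2 in WT replicate 1. These peaks belonged to the region toward Polrmt. In WT replicates 3 and 4 the strongest peak belonged to the region toward Bsg, at 98.3 and 98.4. In edKO replicate 3 no peak reached the window. Taken over its whole length, the region toward Bsg was called in all 6 hearts. Its strongest peak stood at 97.9, 97.2 and 97.5 in the edKO lists and at 98.5, 98.3 and 98.4 in the WT lists. The fold is the authors' own value and the rank was computed from it here; ranks in lists of unequal length cannot show whether a peak changed between hearts.

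**Figure D5:**
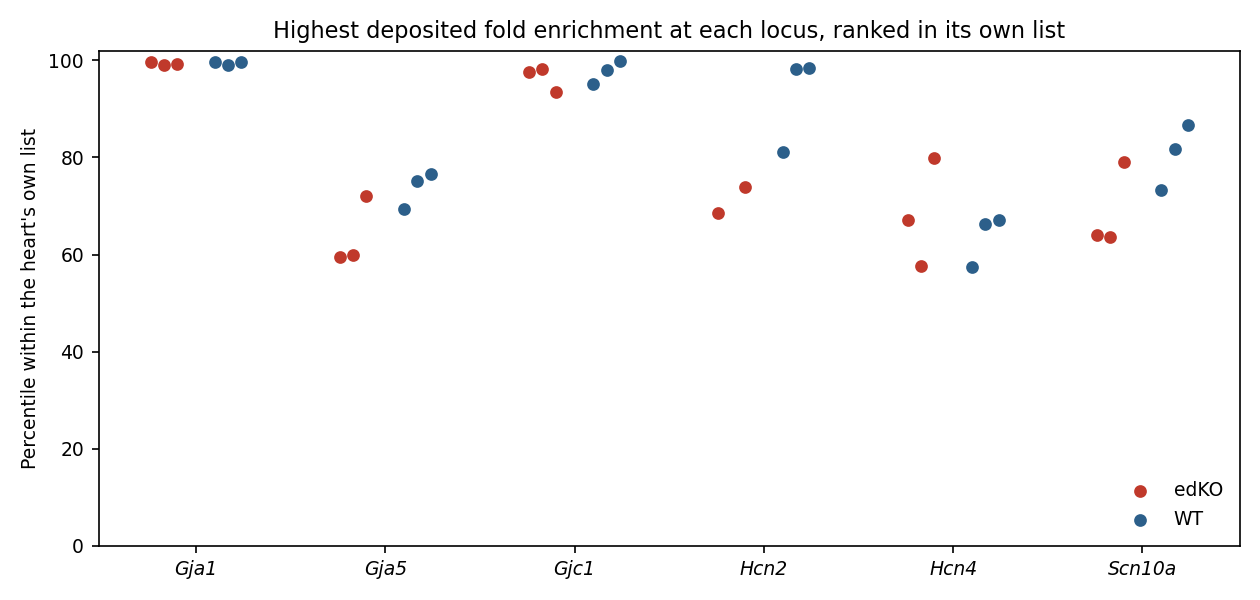
Percentile, within the same heart's own list, of the highest deposited fold enrichment at each gene (points: hearts, edKO left of WT; Hcn2 has no point for edKO replicate 3). Gja1 lies between 99.1 and 99.8 in all 6 hearts, and the other genes spread more widely. The Hcn2 points come from the regions toward Polrmt or Bsg.

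Other genes of the same systems also gave no call. For the counts below, 6.61% of all tested loci had an unadjusted p under 0.05 (limma). Of 16 sodium channel subunits and partners, 7 were tested and 0 passed (limma), with an unadjusted p under 0.05 at 1, and their median log2 difference was -0.12. That gene was Scn4a, the skeletal muscle sodium channel, with 441, 0 and 1517 bp in the edKO hearts and 3799, 3799 and 5255 bp in the WT hearts. All edKO hearts were below all WT hearts at Scn4a (log2 difference -2.79, SE 0.61, limma adjusted p = 0.260), and its window also holds Cd79b and Prr29. Scn1a, Scn9a, Scn3b and Scn4b had no called base in any heart.

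Of 10 further pacemaker genes, 9 were tested and 0 passed (limma), with a median of -0.06 and an unadjusted p under 0.05 at 1. That gene was Kcne2, a potassium channel beta subunit that also associates with HCN channels, at 0.30 (limma, adjusted p = 0.741). Hcn3, another HCN channel gene, had a log2 difference of 0.19 (limma, adjusted p = 0.834). Of 17 other connexins, 6 were tested and 0 passed (limma), with 0 at an unadjusted p under 0.05, a median of -0.02 and 9 genes with no called base in any heart. Gja4, an endothelial connexin, stood at a log2 difference of 0.19 (limma, adjusted p = 0.853).

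Of 15 transcription factors of the conduction system, 14 were tested and 0 passed (limma), with a median of 0.02 and an unadjusted p under 0.05 at 1. That gene was Tbx18, a T-box factor of the sinus node and epicardium, with 11663, 9938 and 11110 bp in the edKO hearts and 7714, 9887 and 8001 bp in the WT hearts. All edKO hearts were above all WT hearts at Tbx18 (log2 difference 0.44, SE 0.11, limma adjusted p = 0.352). Tbx18 was named for the smallest unadjusted p of the 14, and the share of all loci with this order was not counted. Hopx, a homeodomain protein of the conduction system, stood at -0.27 (limma, adjusted p = 0.801).

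Of 13 intercalated disc genes, which join myocytes at the sites where gap junctions sit, all 13 were tested and 0 passed (limma), with a median of -0.04 and an unadjusted p under 0.05 at 2. Those were Dsg2, a desmosomal cadherin, and Cdh2, N-cadherin. Dsg2 had 4637, 3244 and 3128 bp in the edKO hearts and 5896, 5558 and 4640 bp in the WT hearts (log2 difference -0.45, SE 0.14, limma adjusted p = 0.532). Cdh2 had 39190, 28160 and 31606 bp in the edKO hearts and 41748, 40136 and 43244 bp in the WT hearts (log2 difference -0.26, SE 0.11, limma adjusted p = 0.720). At both, all edKO hearts were below all WT hearts, an order held by 6.5% of all tested loci. Both were named for the smallest unadjusted p of their list, which favours such an order.

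The genes of these lists whose centred called length ran most like each member's over the 6 hearts were found by Pearson's r. This is a description only, over hearts that differ in list size and genotype. Cdh2 ran most like Gjc1 (r = 0.91), Dsg2 like Gja5 (r = 0.72) and Id2 like Gja1 (r = 0.93). Scn4a ran most like Hcn2 (r = 0.96), Shox2 like Hcn4 (r = 0.83) and Hopx like Scn10a (r = 0.87), out of 49 candidates each. Scn4a and Hcn2 both had 0 bp in edKO replicate 3 and so share the same lowest value there, -3.83, which enters their r.

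The tissue label was checked against marker lists. All 8 cardiomyocyte markers had called length, summing to 112098 to 170779 bp in the edKO hearts and 163075 to 164961 bp in the WT hearts. The 6 atrial markers summed to 41869 to 77128 bp in the edKO hearts and 41053 to 69222 bp in the WT hearts, and the 5 ventricular markers to 49042 to 63597 bp in edKO and 61519 to 65993 bp in WT hearts. The 8 endothelial markers summed to 65750 to 99602 bp in edKO and 77244 to 93400 bp in WT hearts, and the 8 fibroblast markers to 37077 to 42501 bp in edKO and 28166 to 51993 bp in WT hearts. The 6 smooth muscle and pericyte markers summed to 19435 to 27653 bp in edKO and 21811 to 27402 bp in WT hearts. The 8 neural and Schwann markers summed to 7426 to 9788 bp in edKO and 6231 to 11885 bp in WT hearts, with Sox10 and Th among those at 0 in all hearts. The 6 leukocyte markers summed to 6605 to 7955 bp in edKO and 7474 to 7768 bp in WT hearts, with Ptprc, Lyz2 and Cd3e at 0 in all hearts. In centred called length, 41.5% of all tested loci were estimated lower in edKO hearts, and the median log2 difference over all loci was 0.03. Beside this, 7 of the 8 cardiomyocyte markers were estimated lower in edKO hearts (median log2 difference -0.09). Of the other lists, 7 of 8 fibroblast (0.10), 6 of 6 smooth muscle (0.17) and 6 of 8 endothelial markers (0.13) were estimated higher. The atrial markers had 4 of 6 higher (0.21), the ventricular markers 4 of 5 lower (-0.03), and of the tested neural and leukocyte markers 3 of 4 (0.04) and 2 of 2 (0.09) were higher. Of all these markers 0 passed the test (limma), and 1 endothelial marker, Tie1, had an unadjusted p under 0.05 (log2 difference 0.38, SE 0.16, limma adjusted p = 0.734). The part of cell composition in the differences at Hcn2, Gja5 and Gjc1 was not tested.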

How the data were processed

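H3K27ac ChIP-seq of 6 single hearts was analysed (3 edKO, 3 WT); the 6 input samples were not used here. Peaks were called heart by heart, and each heart has its own list deposited in narrowPeak format, with positions in mm10. The submitters' processing notes name cutadapt, BWA, SAMtools and MACS2; no settings were found in the labels or lists. The deposited signal column is a fold enrichment, a ratio to background, and the deposited significance columns are −log10 p-values and −log10 q-values; these were used only to rank or filter within a list. The largest q in each list lies just under 0.05. Every deposited start, end and summit is a coordinate, and entries with the same or overlapping bounds were joined; other sequences than chromosomes 1 to 19 and X were left out. Lists carry no read counts, so depth and counting error are unknown, and called length moves with how much was called in a heart.

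Called length was summed per gene body ± 10 kb (RefSeq, GRCm38.p6) and per region of the union of the lists (overlap of at least 1 bp). log2(bp + 200) was centred per heart on loci (or regions) called in all 6 hearts. A mean of at least 500 bp was required of loci, and regions called in fewer than 3 hearts were left out. limma 3.58.1 (trend, robust; R 4.3.3) with Benjamini-Hochberg adjustment over the whole table gave differences, edKO minus WT, on this log2 scale, which understates changes at short loci. The fit of loci was tried on simulated loci with independent noise. That setting lacked shared windows and differences in list size between hearts, so it does not cover these. Coverage sums and the permutation test were checked on small made-up examples. Named genes are all 6 members, the 2 genes of smallest unadjusted p in each further list, the most alike gene, and, of the regions, those called in 1 genotype alone and the one of smallest p per member; other regions were added after their values were seen. Some genes that this rule names are not reported here. Members and lists were chosen with earlier results of these data known. Individual hearts are the replicates, per the labels.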

Additional observations from a re-analysis of the deposited data

How the results depend on the processing

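Over 17 alternatives none of the 6 genes changed direction or passed the adjusted threshold. The log2 differences, edKO minus WT, ranged over these from -0.68 to -0.02 at Scn10a, -2.63 to -0.33 (the upper end with gene body and 50 kb) at Hcn2, 0.13 to 0.54 at Hcn4, 0.05 to 0.31 at Gja1, -0.47 to -0.04 at Gja5 and -0.60 to -0.27 at Gjc1. The unadjusted p stayed under 0.05 in 16 alternatives at Hcn2, 14 at Gjc1 and 9 at Gja5. The Gjc1 region 6.1 kb below the gene ranged from -1.20 to -0.58 over 13 alternatives (limma, adjusted p = 0.0971 to 0.983).

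The count of loci past the threshold (15 as reported) was 6 with lists of equal length, 31 with gene body and 50 kb, and 0 to 9 with 1 heart left out: 8, 4 and 9 without edKO replicates 1, 3 and 6, and 3, 0 and 1 without WT replicates 1, 3 and 4. The count of regions (28 as reported) was 0 with lists of equal length, 578 with no filter, 87 with 1000 bp added, 6 with 50 bp added, and 1 to 32 with 1 heart left out. The replicate block gave 90 loci and 0 regions. The genotypes share only the numbers 1 and 3, the labels do not say that these pair hearts, and the correlations of deviations within the numbers were 0.18 and 0.03. Under the block Hcn2 stood at -1.94 (limma, adjusted p = 0.127) and Gjc1 at -0.35 (limma, adjusted p = 0.444).

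The difference in mean number of calls turned to -0.333 at Gja1 with stricter lists and when regions within 1 kb were joined, against 0.333 as reported. It turned to 0.333 at Gja5 with lists of equal length, against -2.33, and at Gjc1 was 0 with regions joined and -0.333 with lists of equal length, against -2.67. In fits with 1 heart left out, chosen after seeing the data, it ranged from -0.167 to 1.33 at Gja1 and from -0.167 to 0.833 at Scn10a. The regions called in all WT hearts alone then numbered 1 to 3, and those in all edKO hearts alone 0 to 1: the Hcn4 region 5.0 kb before the start once edKO replicate 3 was left out. With stricter or equal-length lists the single WT-only region was the Hcn2 one at 7.3 to 7.8 kb in place of the Gja5 one. The cause of these shifts was not tested.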
